A study of Arabidopsis thaliana with 8 samples.

Results

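Photosystem and antenna subunits are represented on these arrays by 5 nuclear genes of Arabidopsis thaliana: PSAN (AT5G64040), PSBW (AT2G30570), PSBY (AT1G67740), PSB27 (AT1G03600) and LHB1B2 (AT2G34420). They are the genes for which the platform annotation gives a probe that names exactly 1 gene, with 1 probe each, 5 of the 692 such probes and of 3439 probes in all. The genes were set by name and not by their measured values. All 5 probes were above 0 on every array and all 5 were tested. The arrays held total RNA of wild-type plants of the ecotype Columbia 0. One group, labelled 0 d, grew at normal CO2 (4 arrays), and the other was kept for 1 d in air with 1% CO2 by volume (4 arrays). The labels name no plants left at normal CO2 for the same day, so CO2, the extra day and the transfer itself cannot be told apart. Tissue and plant age are not given in these sources. No label says whether arrays of one group held RNA of different plants, so p-values here measure array-to-array spread only, which could be technical.

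In the thylakoid membrane, photosystem II takes electrons from water and photosystem I passes them on to ferredoxin, with plastocyanin carrying electrons to photosystem I. Light-harvesting antenna proteins bind most of the chlorophyll and feed energy to both. The reaction centre cores are made from plastid genes, while the antenna and many small or peripheral subunits are encoded in the nucleus and imported as precursors. The 5 proteins described here are nuclear-encoded too. PSAN is a lumenal subunit of photosystem I on the side where plastocyanin docks. PSBW and PSBY encode small membrane subunits of photosystem II, PSBY as a precursor cut into a pair of related proteins in Arabidopsis. PSB27 is a lumenal protein that binds photosystem II during assembly and repair, and it is only grouped here with the subunits. LHB1B2 is one of the Lhcb1 genes, whose products form the trimeric antenna of photosystem II.

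The deposited values are relative intensities on a linear scale that runs from 0 to 100 on every array, with array medians of 0.212 to 0.28. Their background treatment and scaling are unknown, so a fold change here is one of this signal. Within a group, replicates 1 and 2 were more alike to each other than to replicates 3 and 4, which in turn resembled each other: the correlation of log2 intensities across probes was 0.89 to 0.962 within these array sets and 0.843 to 0.9 between them. What the sets stand for is not in the labels. Of 3154 probes tested with limma over all probes, 32.6% passed an adjusted p of 0.05, 14.3% higher and 18.3% lower at high CO2. The balance depended on the scaling: 452 probes were higher and 577 lower after quantile normalization, but 499 were higher and 387 lower with the values as deposited, and 480 and 385 once a running median along the probe numbers (the position trend) was removed from each array, which moved the median log2 fold change over all tested probes to -0.03. After quantile normalization that median was -0.16.

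Among the 5 genes, PSAN fell and PSBW rose after 1 d at high CO2, with the 8 arrays taken as independent. PSB27, PSBY and LHB1B2 did not pass the test. After quantile normalization the PSAN signal dropped to 0.364 times its normal level and the PSBW signal rose 1.59-fold. The deposited means gave 0.412 times for PSAN and 1.74-fold for PSBW. PSBW stood alone in rising, since 4 of the 5 genes had a lower mean at high CO2. The other photosystem II genes, PSB27 and PSBY, were lower like PSAN without passing. They were at 0.477 and 0.771 times normal after normalization, and at 0.572 and 0.828 times by the deposited means. A contrast between the 2 photosystems can therefore not be read from the 2 called genes. These 2 calls of 5 stand against 32.6% of all probes and 31.0% of the 622 single-gene probes tested, so the count is near the background. All 5 probes were bright, and 46.5% of the brightest 25% of tested probes passed. Arrays of one set within a group were not independent, with a consensus correlation of 0.55. With the set within a group as a random block, 14.0% of all tested probes passed. Of the 5 genes only PSAN then passed, and PSBW was at an adjusted p of 0.0566 by limma. The median log2 fold change of the 5 was -0.38. In the values as deposited the groups of arrays did not overlap for 2 of the 5 genes, PSAN and PSBW, against 35.7% of the 2932 probes above 0 on all arrays. After quantile normalization they did not overlap for 4, all but PSB27, against 38.7%.

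**Figure D1:**
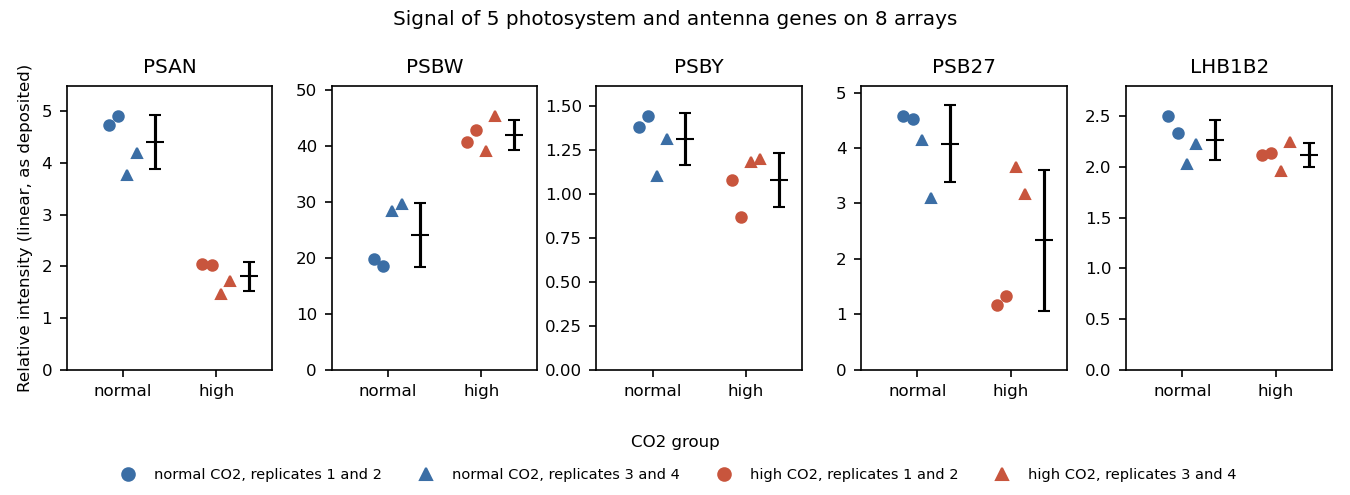
Deposited relative intensity (linear axis from 0, own scale for each gene) of the 5 genes on the 8 arrays; points are arrays, circles replicates 1 and 2 and triangles replicates 3 and 4, and the black bars show mean ± SD of 4 arrays. PSAN lies at 3.76 to 4.9 at normal CO2 and 1.47 to 2.05 at high CO2, PSBW moves the other way, and the high CO2 arrays of PSB27 fall into a low and a high pair.

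PSAN had the largest change of the 5 genes in the fit over all 8 arrays, though not in replicates 1 and 2, where PSB27 was at -1.91 on the log2 scale and PSAN at -1.37. Its relative intensities were 4.73, 4.9, 3.76 and 4.2 in normal replicates 1 to 4 and 2.05, 2.02, 1.47 and 1.71 in high CO2 replicates 1 to 4. Every high CO2 array lay below every normal array, with a wide gap between the groups. The means were 4.4 ± 0.519 at normal and 1.81 ± 0.278 at high CO2 (SD, n = 4 each). The log2 fold change was -1.46 ± 0.19 (SE; 95% interval -1.89 to -1.03; adjusted p = 0.0014 by limma), and 4.5% of tested probes had a lower one. The 2 array sets gave alike values, -1.37 in replicates 1 and 2 and -1.55 in replicates 3 and 4. The difference between the sets was -0.18 ± 0.18 (SE, adjusted p = 0.566 by limma with an interaction term). The call held when the array set within a group was a random block (adjusted p = 0.00726 by limma) and when any 1 array was left out (0.0032 to 0.00661).

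PSBW had the brightest signal of the 5, and the only rise. Its relative intensities were 19.8, 18.6, 28.4 and 29.6 in normal replicates 1 to 4 and 40.7, 42.8, 39.1 and 45.3 in high CO2 replicates 1 to 4. The groups did not overlap. All values lay under 100, but the brightest probe of every array stood at that end of the scale. The limit therefore does not tell whether this signal was saturated, which was not tested. The means were 24.1 ± 5.72 and 41.9 ± 2.69 (SD, n = 4 each). The log2 fold change was 0.67 ± 0.16 (SE; 95% interval 0.3 to 1.04; adjusted p = 0.0155 by limma). Quantile normalization works from ranks, so equal positions got nearly equal values. High CO2 replicates 2 to 4, at 39.1 to 45.3 as deposited, all became 5.38 or 5.39 on the log2 scale. With median centring the log2 fold change was 0.76 ± 0.25 (SE), just under the threshold (adjusted p = 0.049 by limma). The normal arrays split by set, with replicates 1 and 2 lower than 3 and 4, while the high CO2 arrays did not. The log2 fold change was accordingly 0.87 in replicates 1 and 2 and 0.48 in replicates 3 and 4, a difference of -0.39 ± 0.16 (SE) that did not pass (adjusted p = 0.169 by limma with an interaction term). The call was lost without normal replicate 1 (adjusted p = 0.0598), without normal replicate 2 (0.0603), with the set within a group as a random block (0.0566) and in replicates 3 and 4 alone (0.0794).

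PSB27 differed between the array sets. Its relative intensities were 4.57, 4.53, 4.14 and 3.09 in normal replicates 1 to 4, and 1.17, 1.34, 3.66 and 3.18 in high CO2 replicates 1 to 4. High CO2 replicates 1 and 2 were far below all other arrays, whereas replicates 3 and 4 lay within the normal range. The mean went from 4.08 ± 0.689 to 2.34 ± 1.27 (SD, n = 4 each), and the coefficient of variation at high CO2 was 54.2%, the highest of the 5 genes in either group. Over all arrays the log2 fold change was -1.07 ± 0.37 (SE; 95% interval -1.93 to -0.21), which missed the threshold (adjusted p = 0.0601 by limma). It was -1.91 in replicates 1 and 2 and -0.23 in replicates 3 and 4. The difference between the sets, 1.68 ± 0.28 on the log2 scale (SE), passed (adjusted p = 0.029 by limma with an interaction term), as it did for 9.26% of all tested probes. This test of the sets was added after the values had been seen. PSB27 was the only one of the 5 genes to pass it.

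PSBY values overlapped before normalization. Its relative intensities were 1.38, 1.44, 1.1 and 1.31 in normal replicates 1 to 4 and 1.08, 0.866, 1.18 and 1.2 in high CO2 replicates 1 to 4. Normal replicate 3 lay below high CO2 replicates 3 and 4, and the other normal arrays lay above all high CO2 arrays. The means were 1.31 ± 0.148 and 1.08 ± 0.152 (SD, n = 4 each). The log2 fold change of -0.38 ± 0.14 (SE; 95% interval -0.69 to -0.06) did not pass (adjusted p = 0.0679 by limma).

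LHB1B2, the antenna gene, varied least. Its relative intensities were 2.5, 2.34, 2.03 and 2.23 in normal replicates 1 to 4 and 2.12, 2.14, 1.96 and 2.25 in high CO2 replicates 1 to 4. Normal replicates 1 and 2 lay above every high CO2 array, and normal replicates 3 and 4 lay within the high CO2 range. The means were 2.27 ± 0.195 and 2.12 ± 0.121 (SD, n = 4 each), with coefficients of variation of 8.57% and 5.74%. The log2 fold change was -0.31 ± 0.14 (SE; 95% interval -0.62 to 0.0; adjusted p = 0.114 by limma), so the interval runs from 0.65 times the normal signal to no change. With the values as deposited it was -0.1 (adjusted p = 0.603 by limma). The Lhcb1 genes are near-identical copies, and whether this probe also took up RNA of the other copies was not tested.

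The rank of a probe among all probes of its own array needs no scaling between arrays. It places the signal of a probe and not the number of transcripts. PSAN was the 82nd to 113th brightest of 3439 probes on the normal arrays and the 243rd to 366th on the high CO2 arrays. Its mean percentile rank went from 97.22 ± 0.405 to 91.5 ± 1.75 (SD, n = 4 each), a shift of -5.71 against -4.6 for PSB27. Without high CO2 replicate 3 the order turned, with -5.01 for PSAN and -5.95 for PSB27, as it did without high CO2 replicate 4 (-5.46 and -5.6). PSBW moved from positions 16 to 22 up to positions 12 and 13, close to the top of the scale, where little room is left for a rise in rank. PSBY went from positions 346 to 419 down to 439 to 540. LHB1B2 went from positions 185 to 217 down to 230 to 286. For these 4 genes the groups did not overlap in rank, read against the 38.7% of probes given above for quantile normalization, which also works from ranks. The shift for LHB1B2, 1.37 percentile points, is small beside that of PSAN. PSB27 held positions 92 to 143 at normal CO2. At high CO2 it stood at positions 409 and 365 in replicates 1 and 2 and at 126 and 162 in replicates 3 and 4, so that its groups overlapped in rank as they did in level.

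**Figure D2:**
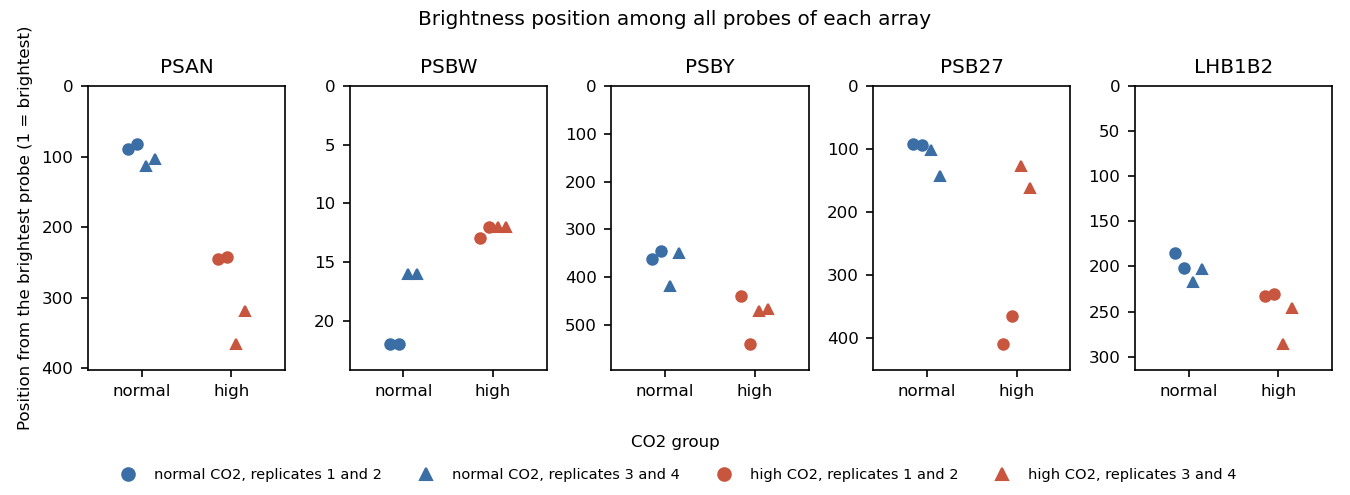
Position of each gene's probe from the brightest of the 3439 probes on each array (reversed linear axis, brightest at the top, own scale for each gene), with symbols for array sets. PSAN drops from positions 82 to 113 to positions 243 to 366, PSBW rises to positions 12 and 13, and high CO2 replicates 1 and 2 stand apart for PSB27.

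Ratios between probes of the same array give the changes of the genes relative to each other, again without scaling between arrays. The size of such a ratio has no meaning across probes, and only its change is read. The log2 ratio of PSAN to PSBW was -2.07, -1.92, -2.92 and -2.82 in normal replicates 1 to 4 and -4.31, -4.4, -4.74 and -4.73 in high CO2 replicates 1 to 4. It changed by -2.11, and the groups lay far apart on every array. The log2 ratio of PSAN to LHB1B2 changed by -1.19, with normal arrays at 0.89 to 1.07 and high CO2 arrays at -0.42 to -0.05. That of PSAN to PSBY changed by -1.01, with groups that did not overlap. The log2 ratio of PSBW to LHB1B2 went from 3.38 ± 0.45 to 4.31 ± 0.03 (SD, n = 4 each). Of the 10 pairs of genes, 6 had groups that did not overlap, against 31.7% of all pairs of single-gene probes above 0 on all arrays, of any brightness. Every pair with PSBW was among them, and all 6 held PSAN or PSBW, the genes called above. The pairs share genes, so their count adds nothing to those calls. PSBY and LHB1B2 kept nearly the same ratio, with a change of -0.18 and overlapping groups. The pairs of PSB27 with PSAN, PSBY and LHB1B2 overlapped too, since its high CO2 arrays were split by set. These ratios are a description and were not tested.

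**Figure D3:**
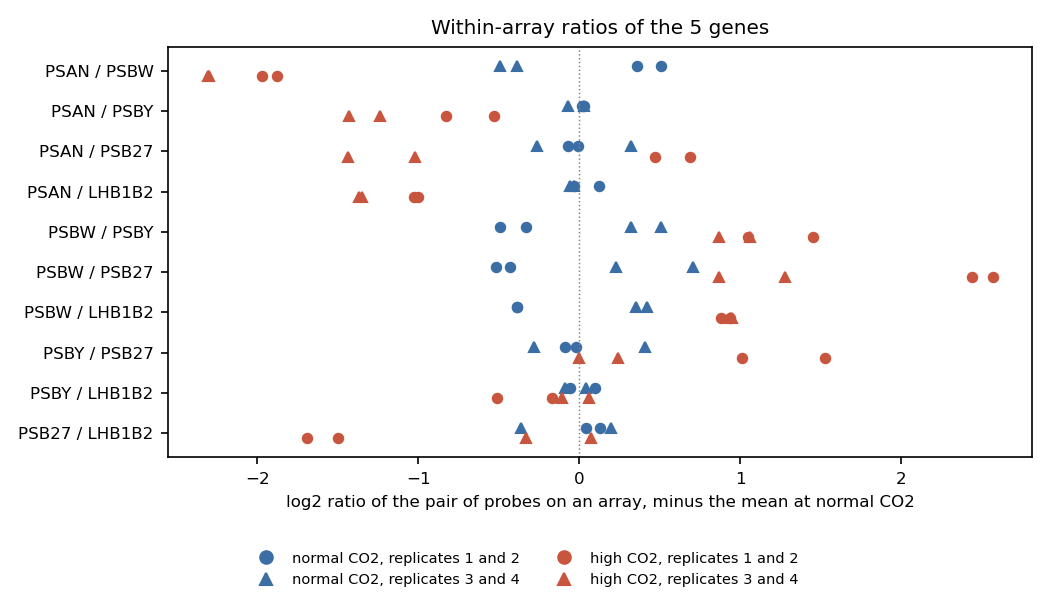
Log2 ratio of each pair of probes on each of the 8 arrays, minus the mean of that ratio over the 4 normal arrays (linear axis, no error bars; each point is an array). The PSAN to PSBW ratio moves by -2.11, while PSBY and LHB1B2 stay together with a change of -0.18.

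A probe's number may reflect its place on the array, which the labels do not describe, so each gene was set against the 50 tested probes nearest to it in number. The neighbours of PSBY had a median log2 fold change of -0.48, close to that of PSBY itself, and 15 of the 50 were called lower against 5 higher. The neighbours of LHB1B2 were at -0.21, with 13 called lower and 3 higher. Those of PSB27 were at -0.25, with 11 lower and 7 higher. For PSAN 10 neighbours were lower and 7 higher, and for PSBW 9 and 4. Over all tested probes 18.3% were called lower and 14.3% higher. When a running median over 51 probes was removed from each array, PSBY was at 0.0 ± 0.13 and LHB1B2 at 0.03 ± 0.17 (SE). The PSB27 value became -0.79 ± 0.4 (SE, adjusted p = 0.167 by limma). PSAN, at -1.32 ± 0.18 (SE, adjusted p = 0.00167 by limma), and PSBW, at 0.81 ± 0.2 (SE, adjusted p = 0.0204 by limma), kept direction and call, although their neighbours had medians of -0.28 and -0.32. The part of the probe's place in these values was not tested.

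Beyond the 5 genes, the parts of the photosynthetic apparatus listed here could not be followed by single-gene probes. Parts that were not listed did have tested single-gene probes, such as carbon fixation and photosystem assembly proteins other than PSB27. The counts below depend on which genes were listed. Of 59 nuclear genes listed for photosystem I, photosystem II, the antenna, electron transport and ATP synthase, the 5 described here were the only ones tested. For photosystem I this is 1 of 12 listed genes, which fell. For photosystem II it is 3 of 14, of which 1 rose, 0 fell and 2 did not pass. For the antenna it is 1 of 21, which did not pass. None of the 8 electron transport genes and none of the 4 ATP synthase genes had such a probe. A further 3 probes hold listed genes together with other genes and are not named. The 5 genes therefore do not stand for their complexes.

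**Figure D4:**
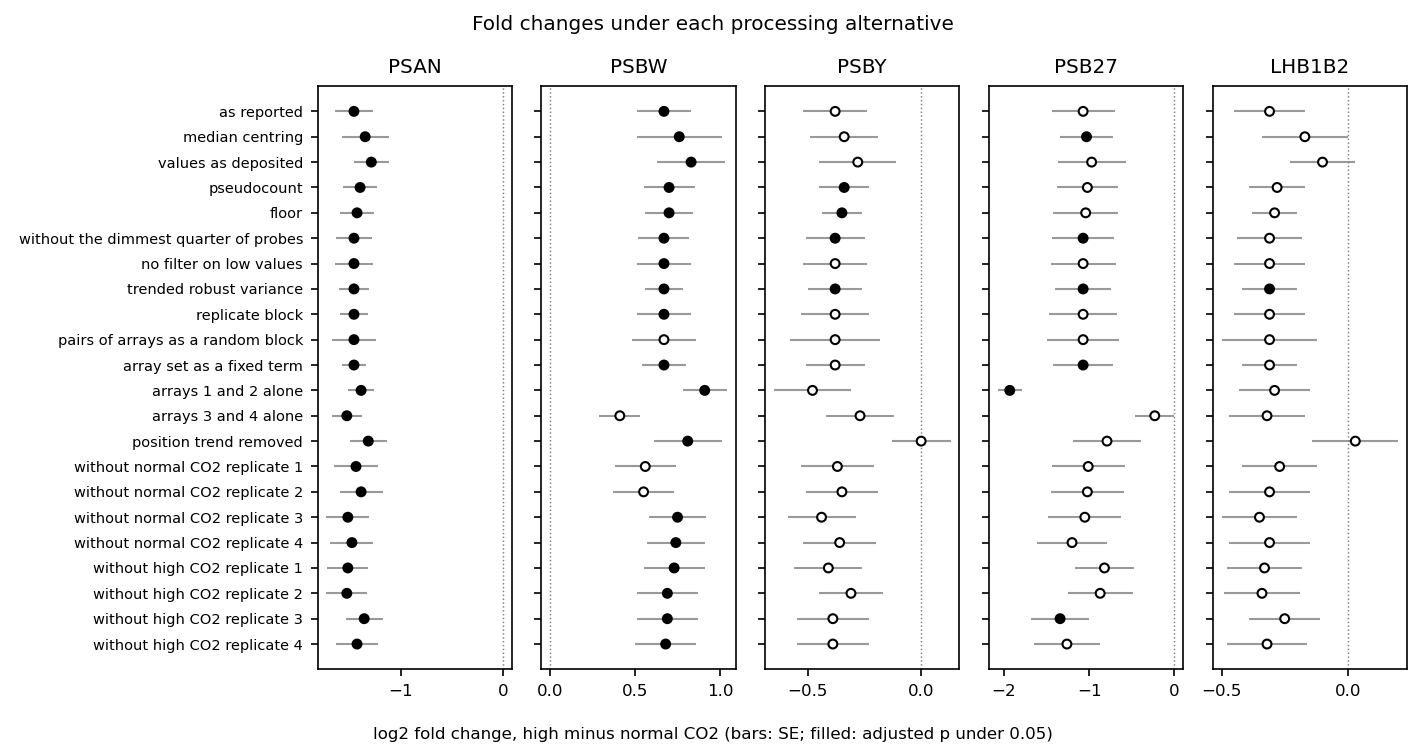
Log2 fold change (high minus normal CO2, linear axis, own scale for each gene) of the 5 genes as reported and under 21 alternatives; bars are SE, and filled circles have an adjusted p under 0.05 by limma. PSAN is filled in every row, PSBW in all but 4 alternatives, and PSBY and LHB1B2 reach 0.0 and 0.03 with the position trend removed.

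The single-gene probes with profiles most like each of the 5 were found by the smallest root mean square difference of normalized log2 values, each profile centred on its own mean, over the 8 arrays and 574 probes. Such likeness includes the difference between the groups, and none of these genes is in the lists above. Closest to PSAN were AT2G33180 (0.194), AT1G79220, an mTERF protein (0.217), and AT2G40980 (0.225). AT2G33180 fell from 6.08 ± 0.462 to 2.9 ± 0.41 (SD, n = 4 each), or by 1.28 on the log2 scale (adjusted p = 0.00104 by limma). Closest to PSBW was AT1G17160 at 0.071, the smallest difference found for any of the 5. AT1G17160 rose from 1.08 ± 0.103 to 1.98 ± 0.17 (SD, n = 4 each), or by 0.74 on the log2 scale (adjusted p = 0.00863 by limma), at a far dimmer signal. The next for PSBW were AT1G79480 (0.113) and AT3G52070 (0.131). Closest to PSB27 were AT3G59980 (0.169), AT2G46630 (0.231) and GLR2.7, a glutamate receptor-like gene (0.278), each with a log2 fold change of -1.02 or -1.03. For PSBY they were AT2G47360 (0.121), AT4G31470 (0.121) and AT1G21660 (0.126). For LHB1B2 they were AT4G22190 (0.093), chr31 (AT1G05490; 0.106) and AT2G19280 (0.11), whose log2 fold changes were -0.18, -0.11 and -0.43.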

How the data were processed

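The authors deposited a linear relative intensity for each of 3439 probes on 8 arrays. How background was treated and whether values were normalized is not stated in these sources, so scale and centring are unknown. Values at 0 (133 to 219 probes per array) were taken as missing, the rest put on the log2 scale and quantile normalized. Probes with 3 values in each group (3154) were fitted in R 4.3.3 by the functions lmFit and eBayes of limma 3.58.1 (two-sided tests, Benjamini-Hochberg over all of them, threshold 0.05, high minus normal). Means, SDs, ranks and ratios within arrays use the deposited values. Fold changes use the quantile-normalized values unless another scaling is named. Figures were drawn with matplotlib 3.10.9. Probes were named through gene identifiers with the names of assembly TAIR10.1; no coordinates are given, since the probes come with no genome build. The genes, lists and alternatives were chosen with earlier results of these data known. Genes named were the 5 members, every listed gene tested, and the 3 probes with the most similar profile for each member. The fit was tested on simulated data. Alternatives were median centring, values as deposited, a pseudocount of 0.0549, a floor at percentile 5, the dimmest 25% left out, no filter, another variance model, blocks, array sets apart, the position trend removed, and each array left out. The number of arrays limits the precision. The replicate numbers were not used as pairs, because the correlation of deviations between arrays of one number was 0.064, 0.1, 0.129 and 0.071 and so not above 0.1 throughout. This cut-off does not show that pairing is absent, since all 8 arrays deviated most like the array of their own number in the other group. A fit with the replicate number as a block is therefore given among the alternatives.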

Additional observations from a re-analysis of the deposited data

Results flagged for a closer look

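In 4 of 40 groups of 4 arrays 1 array stood apart, where chance gives about 2; the groups share arrays and genes. In the normalized log2 level of PSBW at high CO2 the gap of replicate 1 took up 0.914 of the range, with 5.28 against 5.38 to 5.39. In the percentile rank of PSBW the same array was apart by 1.0 of the range, at position 13 against 12 on the other arrays. In the log2 ratio of PSBW to LHB1B2 at high CO2 it was apart by 0.849 of the range, with 4.26 against 4.32 to 4.33. In the log2 ratio of PSAN to PSBY at normal CO2, replicate 4 was apart by 0.892 of the range, with 1.68 against 1.77 to 1.78. In all 4 groups the values lie close together.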

How the results depend on the processing

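PSAN passed under all 21 alternatives (log2 fold change -1.53 to -1.29), PSBW under 17, PSB27 under 6, PSBY under 4 and LHB1B2 under 1; ranks moved by less than the spread between arrays. With each array left out, the range was -1.53 to -1.36 for PSAN, 0.55 to 0.75 for PSBW, -1.34 to -0.82 for PSB27, -0.44 to -0.31 for PSBY and -0.35 to -0.25 for LHB1B2. PSBW lost its call without normal replicates 1 (0.56) or 2 (0.55), with the pairs of arrays as a random block (0.67, with a larger error) and in arrays 3 and 4 alone (0.41). PSB27 passed without high CO2 replicate 3 (-1.34), with median centring (-1.03), and at -1.07 after leaving out dim probes, with a trended variance or with a fixed term for the set, and in arrays 1 and 2 alone (-1.93). PSBY passed with the pseudocount (-0.34), the floor (-0.35), the trended variance (-0.38) and dim probes left out (-0.38), and LHB1B2 with the trended variance (-0.31). With the position trend removed, PSBY was at 0.0 and LHB1B2 at 0.03. The causes were not tested.

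Of all probes 1029 were called, 452 higher and 577 lower, and 442 with the pairs as a random block (235 higher, 207 lower). Higher calls were 43.9% of all calls, 56.3% with the values as deposited, 55.5% with the position trend removed and 53.2% with the random block. With 1 array left out at a time there were 729 to 912 calls, 358 to 410 higher and 371 to 519 lower, with 371 lower without normal replicate 1 and 383 without normal replicate 2. With the replicate number as a block, 845 probes were called, PSAN had an adjusted p of 0.00958 and PSBW of 0.0393 by limma, and no call on the 5 genes changed; all 8 arrays deviated most like the array of their own number in the other group.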
